A study of Rattus norvegicus with 9 samples.

Results

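The comparison described here set 3 libraries of primary rat osteoblasts given thrombin and the MEK inhibitor PD0325901 (PD03) against 3 libraries of osteoblasts given thrombin alone. Its members were these 6 of the 9 libraries of the series, chosen by their labels, and the effect was described over the 13256 genes with enough counts for a test, out of 19085 in the deposited table. The cells came from the calvaria of newborn male Sprague-Dawley rats according to the growth protocol, whereas the tissue label names the knee. They were used at the first passage, and all 3 groups shared 7 days in osteogenic induction medium, which contains β-glycerophosphate, ascorbic acid and dexamethasone. The control group had this medium alone, the thrombin group had thrombin at 20 U/mL, and the PD03 group had thrombin at 20 U/mL with PD03. The design text gives PD03 at 0.1 μM, and the treatment protocol of the labels gives the same figure in mM for short treatments. The treatment label of the PD03 libraries names the inhibitor only, so the presence of thrombin in them rests on the design text. None of the 9 libraries came from cells given PD03 without thrombin, so an effect of MEK inhibition that needs thrombin cannot be told apart from one that does not. The labels do not say whether the 3 libraries of a group came from separate animals, so the p-values measure the spread between these libraries, which may be technical.

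MEK1 and MEK2 are kinases known chiefly for the phosphorylation of the ERK kinases, and they stand below the small GTPase RAS and the RAF kinases in the pathway that growth factor receptors and many G protein-coupled receptors, those for thrombin among them, can activate. Active ERK phosphorylates transcription factors and thereby switches on immediate early genes such as Egr1 and Fosl1, and it induces its own brakes: the dual-specificity phosphatases (DUSP), which remove phosphate from ERK, and the Sprouty and SPRED proteins, which act upstream at RAS and RAF. In osteoblasts the pathway is known for driving proliferation through cyclin D1 and for its part in the regulation of Runx2, the master transcription factor of the lineage.

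The 9 libraries held between 15447832 and 19841468 counts. Col1a1, the chain of type I collagen that makes up most of bone matrix, made up 6.78% to 6.96% of all counts with PD03 and 4.18% to 5.05% without it, and the 10 genes with the most counts took 17.6% to 17.7% against 13.1% to 14.1%. Levels are given as CPM, counts relative to library size, after scaling by the trimmed mean of M values (TMM), which sets aside such abundant, changed genes. In bulk RNA, fewer cells of a type and less RNA per cell cannot be told apart. The osteoblast markers Bglap (osteocalcin) and Ibsp (bone sialoprotein) had too few counts for a test, while Col1a1, Col1a2 and Sparc were abundant. The summed level of 8 myeloid markers was 29.2 to 32.8 CPM in the thrombin libraries and 17.6 to 19.3 CPM in the PD03 libraries, nearly all of it from Cd14, and that of 5 endothelial markers was 7.34 to 9.75 CPM and 12.02 to 14.05 CPM, mostly from Tek. The sum of 6 neural and Schwann markers was 61.2 to 65.7 CPM and 99.3 to 104.5 CPM, mostly from Tubb3, with Sox10 under 1 CPM, and that of 3 epithelial markers was 3.57 to 4.99 CPM and 8.87 to 12.07 CPM, nearly all from Krt8, with Krt5 at 0. Their part in the results below was not tested.

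Compared with the thrombin group, 1274 genes (9.61% of those tested) were higher and 836 (6.31%) were lower in the PD03 group. Calls needed an adjusted p-value below 0.05 and a log2 fold change beyond 0.58 in either direction. In thrombin against control, which shares the thrombin libraries, 347 genes (2.62%) were higher and 721 (5.44%) lower. In PD03 against control 649 (4.9%) were higher and 540 (4.07%) lower. The counts of each gene list below are to be read beside these shares of all tested genes. A gene counted as not moved by thrombin when the whole 95% interval of its thrombin against control log2 fold change lay within 0.58 of 0, and 9474 genes did. Of these, 333 (3.51%) were higher and 389 (4.11%) were lower with PD03 than with thrombin alone. The interval allows a small change: without any fold threshold, at an adjusted p-value under 0.05, thrombin against control had 14.1% of genes higher and 14.6% lower, and PD03 against thrombin 25.3% higher and 24.5% lower. The median log2 fold change over all tested genes was 0.01 in PD03 against thrombin and -0.01 in thrombin against control. Scaling by library totals moved the first of these to -0.09 and turned the split of the calls to 1022 higher and 1176 lower (209 and 639 among the genes not moved by thrombin), so small falls and rises below are to be read relative to that shift.

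**Figure D1:**
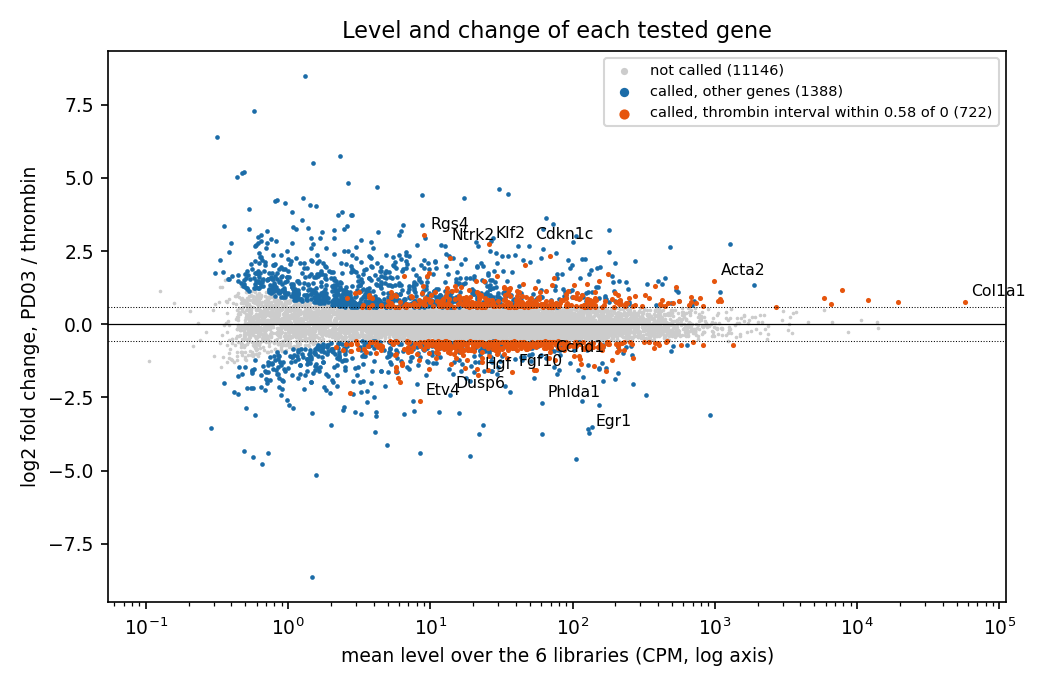
Log2 fold change of PD03 against thrombin (vertical axis) for each tested gene against its mean level over the 6 libraries (CPM, log axis). Grey points were not called, blue and orange points were called, orange marks the called genes that thrombin did not move, and dotted lines mark a log2 fold change of 0.58 in either direction. Calls are spread over the whole range of levels, and Col1a1, the most abundant gene, lies among the risers.

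The largest rises under the naming rule were mostly of genes that thrombin had lowered, and the 2 comparisons share the thrombin libraries. Clec3b, which encodes the plasminogen-binding protein tetranectin, was at 2.86, 2.03 and 2.33 CPM in the 3 thrombin libraries and at 60.3, 55.5 and 59.7 CPM in the 3 PD03 libraries, a 24.4-fold rise (adjusted p = 3.9e-33), with 29.8, 31.3 and 30.6 CPM in the control libraries. The highest thrombin library lay far below the lowest control and PD03 library, and the PD03 libraries lay above the controls. Cilp, a protein of the cartilage intermediate layer (21.9-fold), Dpp4, a cell surface dipeptidyl peptidase (20.1-fold), Cpz, a carboxypeptidase of the extracellular space (21.5-fold), and Gdf5, a growth factor of the developing joint (13.3-fold), rose in the same way, as did Asb12 (26.1-fold), the cadherin gene Cdh8 (28.2-fold) and Lrrn4 (13.3-fold). Thrombin against control log2 fold changes were negative for all 8, from -3.67 for Clec3b to -0.58 for Lrrn4, although that of Lrrn4 missed the test (adjusted p = 0.418). Cpz, Cdh8, Asb12, Gdf5 and Lrrn4 had under 1 CPM in every thrombin library, so that their ratios rest on few counts.

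Among the largest falls, Lif, a cytokine of the interleukin-6 family, stood at 38.6, 38.8 and 39.5 CPM in the control, 104, 113 and 122.5 CPM in the thrombin and 7.36, 7.71 and 10.4 CPM in the PD03 libraries, a 13.4-fold fall from thrombin (adjusted p = 2.8e-33) to a level under every control library. Adcyap1r1, the receptor of the neuropeptide PACAP (22.5-fold), Krt7, a keratin of simple epithelia (21.0-fold), Cd93, a C-type lectin-like receptor (17.4-fold), and Adamts8, a secreted metalloproteinase (12.7-fold), followed the same course, together with the chemokine gene Cxcl3 (24.4-fold). The matrix protein gene Reln fell 13.5-fold from thrombin to 2.12, 2.59 and 4.47 CPM, overlapping the controls (4.51, 3.79 and 4.61 CPM). For Lif, Adcyap1r1, Krt7, Cd93 and Adamts8, the PD03 against control log2 fold change was -2.20, -3.02, -2.82, -2.53 and -2.52, so each ended below the level without thrombin.

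Genes listed as feedback genes of ERK were mostly lower with PD03. Most of the list encodes the brakes named above, and the rest is Etv1, Etv4, Etv5, Phlda1 and Ier3, which are not among those brakes. Of 16 feedback genes, all of them tested, 10 fell (62.5%, against 6.31% of all tested genes) and none rose. The median log2 fold change was -0.82, whereas thrombin alone had raised 2 of them and lowered none (median 0.11). Dusp6, the phosphatase with the closest tie to ERK, was at 22.2, 20.5 and 26.5 CPM with thrombin and at 4.82, 3.11 and 5.02 CPM with PD03, a 5.28-fold fall (log2 -2.40 ± 0.125 SE, adjusted p = 4.1e-20), with 31.4, 30.9 and 28.9 CPM in the controls. Its 3 groups did not overlap, and thrombin libraries lay between the controls and the PD03 libraries.

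The ETS transcription factor gene Etv4 was at 12.6, 13.3 and 16.3 CPM in the control, 15.2, 14.4 and 13.9 CPM in the thrombin and 1.91, 2.46 and 2.75 CPM in the PD03 libraries. Control and thrombin libraries overlapped, with a log2 difference of 0.04 (95% interval -0.19 to 0.27), and every PD03 library was far below both, a 6.13-fold fall (adjusted p = 1.3e-18). Its relatives Etv1 (5.11-fold) and Etv5 (2.26-fold) fell too, and Etv1 had also not been moved by thrombin. Phlda1, a pleckstrin homology domain protein, went the other way under thrombin, from 54.2, 50.0 and 56.0 CPM in the controls to 106, 97.9 and 111 CPM, and stood at 13.2, 15.997 and 19.6 CPM with PD03 (6.49-fold below thrombin, adjusted p = 5.2e-29).

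Smaller falls were those of Dusp5, a nuclear phosphatase of ERK (log2 -1.03), Spred3 (-0.94), Spry2 (-0.87), Spred2 (-0.77) and Spry4 (-0.61). None of these 5 was moved by thrombin in the sense above, with thrombin against control log2 fold changes from -0.31 for Spry2 to 0.20 for Spred3. Sprouty members did not move together: Spry1 was at 64.3, 60.3 and 55.1 CPM with thrombin and at 83.4, 76.9 and 80.7 CPM with PD03, and its change (log2 0.42) stayed under the fold threshold (adjusted p = 1.5e-07), and Spry3 was barely expressed (1.55, 1.21 and 0.991 CPM with thrombin, 1.22, 1.23 and 0.918 CPM with PD03). Dusp4 (-0.38), Dusp7 (-0.36), Spred1 (-0.38) and the stress gene Ier3 (-0.42) were also not called.

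**Figure D2:**
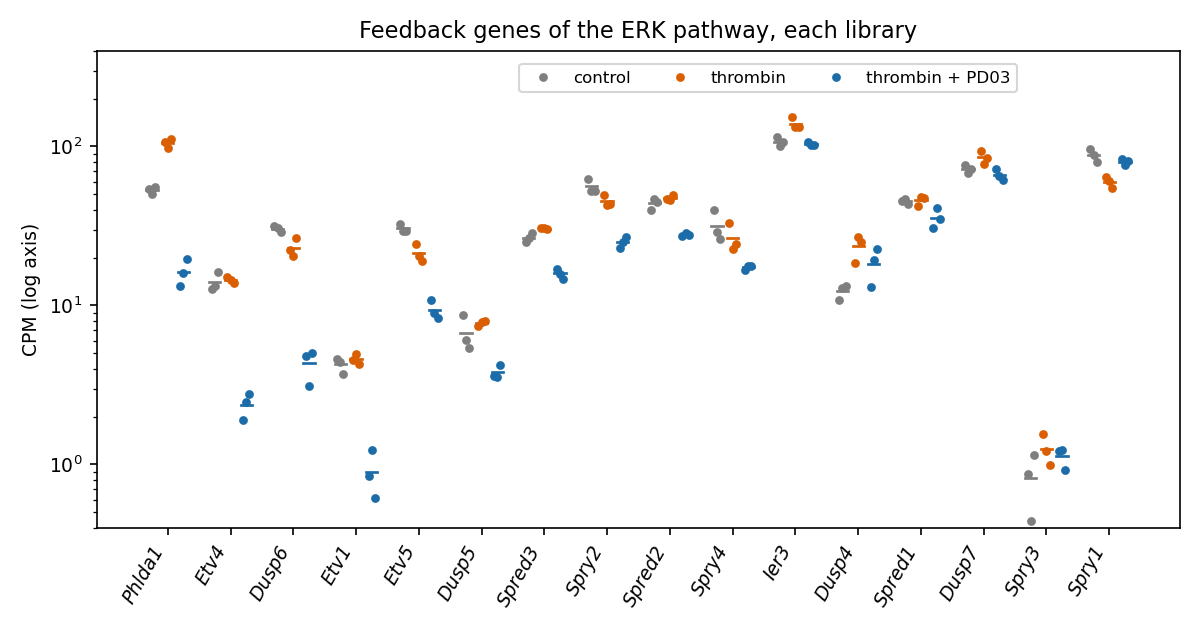
CPM on a log axis of the 16 feedback genes in each library of the control (grey), thrombin (orange) and thrombin with PD03 (blue) groups, points being libraries and bars group means, ordered by the change with PD03. The PD03 libraries of the first 10 genes lie below all thrombin libraries, whereas those of Spry1 at the right lie above them.

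The kinases themselves and their partners mostly stayed under the fold threshold. Of 25 tested components of the pathway from RAS to ERK, 2 were higher (8%) and 1 lower (4%), with a median of 0.01. The shares over all tested genes were 9.61% and 6.31%. Map2k1 and Map2k2, which encode MEK1 and MEK2, had log2 fold changes of -0.35 and -0.01. The 3 called genes were Gab1, a docking protein below receptor tyrosine kinases (log2 0.65), Rps6ka3, which encodes the ERK-activated kinase RSK2 (0.61), and Rps6ka1, which encodes RSK1 (-0.71). Both RSK genes lay within 0.58 of 0 under thrombin, and they had changes of opposite sign with PD03. Library totals as the scaling took Gab1 (0.55) and Rps6ka3 (0.51) under the fold threshold.

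Immediate early genes, read here after 7 days of culture, were mostly lower with PD03. Of 19 tested, 12 were lower (63.2%, against 6.31% of all tested genes) and 2 higher (10.5%, against 9.61%), with a median of -0.69. Thrombin alone had left 1 higher and 3 lower (median 0.13). Egr1, a zinc finger factor that rises within minutes of ERK activation, was at 391, 309 and 318 CPM in the controls, 319, 187 and 223 CPM with thrombin and 17.3, 19.9 and 19.0 CPM with PD03. All PD03 libraries lay more than an order of magnitude under the control libraries, and the fall from thrombin was 12.99-fold (adjusted p = 1.7e-27). Egr2 was at 6.90, 5.81 and 5.77 CPM with thrombin and 0.795, 1.17 and 0.979 CPM with PD03 (6.31-fold), after a fall with thrombin from 17.5, 14.6 and 15.7 CPM. Fosl1, the AP-1 subunit Fra-1, fell 3.61-fold (adjusted p = 1.2e-18), and Myc, a regulator of growth and ribosome production that thrombin had not moved, was at 76.4, 69.3 and 71.8 CPM with thrombin and 41.4, 45.3 and 47.9 CPM with PD03 (1.62-fold).

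A pair of members rose. Jund, an AP-1 subunit associated with resting cells, was at 132, 145 and 135 CPM in the control, 132, 139 and 129.9 CPM in the thrombin and 261, 237 and 230.1 CPM in the PD03 libraries (log2 0.86, adjusted p = 7.3e-20), with overlapping control and thrombin libraries and a separate PD03 group. Atf3, a stress-induced factor, rose from a low level (1.13, 1.92 and 2.86 CPM with thrombin, 4.61, 6.02 and 6.55 CPM with PD03).

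RefSeq promoter windows of the GRCr8 assembly, 250 bases before to 50 after each gene start, were searched on both strands for letters that factors of this pathway bind. The ETS core CCGGAAGT was in none of 13 windows matched to feedback genes. It was in 4.01% of 27457 windows in all and in 8.19% of the windows of tested genes, so an absence from so few windows says little. The AP-1 letters TGANTCA were in 1 of the 13 (7.33% of all windows, 4.75% of those of tested genes) and in none of 13 windows of immediate early genes. Of the latter, 3 held the cyclic AMP element TGACGTCA (1.91% of all, 3.3% of those of tested genes). The CArG box, which serum response factor binds, was added after the values had been seen. It was in 3 of 13 windows of immediate early genes, those of Egr1, Egr2 and Srf, and in 2 of 13 of feedback genes, those of Dusp5 and Etv1. The share was 1.64% of all windows and 1.27% of those of tested genes. A match is a description of letters, not of a site in use. The 250 bases before the starts of Dusp5 and Egr2, both lower with PD03, are shown with CArG boxes in capitals, Dusp5 from chr1:262543524-262543773 on the plus strand and Egr2 from chr20:21054442-21054691 on the minus strand.
Dusp5: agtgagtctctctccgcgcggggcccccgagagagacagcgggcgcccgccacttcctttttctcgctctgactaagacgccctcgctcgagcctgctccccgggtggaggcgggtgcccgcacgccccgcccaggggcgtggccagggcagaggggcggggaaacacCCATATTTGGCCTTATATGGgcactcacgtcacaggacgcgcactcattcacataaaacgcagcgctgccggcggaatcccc
Egr2: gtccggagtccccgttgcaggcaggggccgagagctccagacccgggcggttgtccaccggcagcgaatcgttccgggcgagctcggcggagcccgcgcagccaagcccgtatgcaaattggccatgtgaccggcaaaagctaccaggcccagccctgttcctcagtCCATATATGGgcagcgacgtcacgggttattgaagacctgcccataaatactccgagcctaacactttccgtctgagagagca

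In Dusp5 a pair of boxes stood side by side, starting 82 and 72 bases before the gene start, and in Egr2 a single box started 83 bases before it. Srf, which also held the box, was at 115, 120.2 and 116 CPM with thrombin and 97.3, 101 and 104 CPM with PD03 and was not called (log2 -0.22).

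Genes of the cell cycle were lower with PD03, while thrombin itself left them within the fold threshold. Of 49 tested genes of DNA replication, 25 were lower with PD03 than with thrombin and none was higher (median -0.58), and of 39 genes of mitosis and the spindle 18 were lower and none higher (median -0.55), against 6.31% of all tested genes called lower. Thrombin alone changed none of these genes past the fold threshold, with medians of 0.20 and 0.14, and 47 of the 49 and all 39 met the definition of not moved. At the adjusted p-value alone, however, 27 and 17 of them were higher with thrombin and none was lower, and 47 and 38 were lower with PD03. The members lay close to the fold threshold, so the count depends on it: with a threshold of 1 none was called in either list, and with library totals as the scaling 36 and 29 were lower.

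Cdc6, which loads the replicative helicase onto DNA, was at 17.5, 17.9 and 19.1 CPM in the control, 23.1, 23.6 and 24.6 CPM in the thrombin and 13.5, 12.6 and 13.1 CPM in the PD03 libraries. The groups did not overlap, the thrombin libraries being highest and the PD03 libraries lowest, and the fall from thrombin was 1.82-fold (adjusted p = 5.6e-11). Orc1, a subunit of the origin recognition complex, fell 1.96-fold, from 16.5, 15.1 and 13.5 CPM to 7.73, 7.06 and 8.20 CPM. Mcm6, a subunit of the helicase itself, was at 132, 133 and 131 CPM, 149.7, 157 and 158 CPM and 88.6, 82.8 and 85.1 CPM in the 3 groups in the same order (1.81-fold below thrombin, adjusted p = 4.6e-20). Other helicase subunits did the same, with log2 fold changes of -0.65 for Mcm2, -0.74 for Mcm3, -0.73 for Mcm5 and -0.81 for Mcm7, and Pcna, the sliding clamp of the replicative polymerases, had -0.64.

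Among mitotic genes, Aurka, a kinase of the spindle poles, was at 48.2, 44.4 and 51.1 CPM with thrombin and 28.8, 24.2 and 28.3 CPM with PD03 (1.76-fold), with 35.2, 35.4 and 37.4 CPM in the controls. Bub1b, of the spindle checkpoint, fell 1.74-fold and Espl1, the separase that releases sister chromatids, fell 1.74-fold. Mki67, the usual marker of cycling cells, stood at 192, 193 and 183 CPM in the control, 223, 222 and 218 CPM in the thrombin and 129, 147 and 142 CPM in the PD03 libraries, a 1.58-fold fall (adjusted p = 7.2e-17) to a level under all controls (log2 -0.44 against control, not past the fold threshold). Against the control group 7 replication genes (14.3%) and 2 mitotic genes (5.13%) were lower with PD03, fewer than against thrombin. The share of all tested genes was 4.07%. In this comparison the median was -0.43 in both lists, and 47 of 49 replication genes and all 39 mitotic genes had a log2 fold change under 0.

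Upstream of these genes, Ccnd1, which encodes cyclin D1 and links ERK activity to entry into the cycle, was at 90.6, 80.5 and 88.7 CPM in the control, 93.5, 94.9 and 94.6 CPM in the thrombin and 38.9, 42.5 and 44.9 CPM in the PD03 libraries. Thrombin had not moved it (log2 0.12), and the fall with PD03 was 2.25-fold (adjusted p = 7.2e-21) with no overlap with either group. Rb1, the retinoblastoma protein that cyclin D1 kinases inactivate, rose (log2 0.66) from a level that thrombin had not moved, and its relative Rbl1 fell (-0.63). The inhibitor gene Cdkn1c (p57) had fallen with thrombin from 59.3, 57.5 and 58.2 CPM to 12.1, 14.6 and 13.1 CPM and was at 96.8, 79.1 and 80.7 CPM with PD03, a 6.43-fold rise (adjusted p = 2.9e-29). Cdkn1a (p21) and Cdkn1b (p27) were not called (log2 -0.13 and 0.21). Of 20 genes in this list 2 were higher and 2 lower (10% each, against 9.61% and 6.31% of all tested genes). Among 18 p53 target genes only the antiproliferative gene Btg2 was called (log2 -0.83), and among 13 genes of the Bcl2 family of cell death regulators only Bmf was (log2 0.64).

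**Figure D3:**
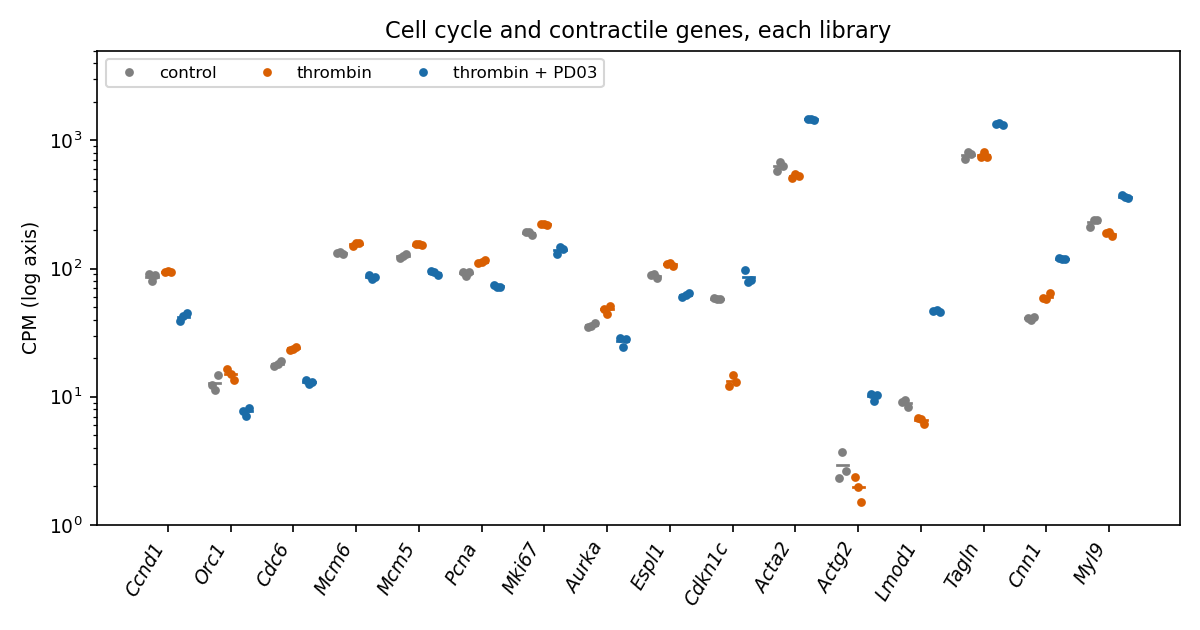
CPM on a log axis of 10 genes of the cell cycle (left) and 6 contractile genes (right) in each library of the control (grey), thrombin (orange) and thrombin with PD03 (blue) groups, with bars at the group means. From Ccnd1 to Espl1 the PD03 libraries lie below the thrombin libraries, and from Cdkn1c to Myl9 they lie above them.

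Promoters of replication genes carry sequences for E2F, the factor family that cyclin D1 kinases free from the retinoblastoma protein. The E2F letters TTTGGCGC or TTTCCCGC stood in 13 of 39 matched windows of replication genes (33.3%), against 1.53% of all windows and 3.04% of the 9906 windows of tested genes. They were in 6 of the 21 windows of replication genes that were lower (28.6%), a share not above that of the whole list. Replication genes that were not called held them too, among them Gins1, Pola1 and Tyms. None of 34 windows of mitotic genes held them. A tie between the letters and the falls was not tested. The windows without a match may hold other forms of the element. The 250 bases before the starts of 3 helicase subunit genes that were lower with PD03 are shown with these letters in capitals on either strand, Mcm5 from chr19:13488563-13488812 (plus strand), Mcm6 from chr13:42404353-42404602 (minus strand) and Mcm7 from chr12:22163179-22163428 (minus strand).
Mcm5: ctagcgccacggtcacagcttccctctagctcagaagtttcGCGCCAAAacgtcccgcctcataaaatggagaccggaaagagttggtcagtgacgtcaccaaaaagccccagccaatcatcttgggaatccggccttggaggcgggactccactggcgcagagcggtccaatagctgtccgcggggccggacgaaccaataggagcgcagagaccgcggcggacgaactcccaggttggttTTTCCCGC
Mcm6: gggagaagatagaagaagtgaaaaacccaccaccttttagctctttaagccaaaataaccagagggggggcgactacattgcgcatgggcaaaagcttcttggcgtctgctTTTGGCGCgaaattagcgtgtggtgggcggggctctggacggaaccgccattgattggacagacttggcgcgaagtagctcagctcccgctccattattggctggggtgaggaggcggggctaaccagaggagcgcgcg
Mcm7: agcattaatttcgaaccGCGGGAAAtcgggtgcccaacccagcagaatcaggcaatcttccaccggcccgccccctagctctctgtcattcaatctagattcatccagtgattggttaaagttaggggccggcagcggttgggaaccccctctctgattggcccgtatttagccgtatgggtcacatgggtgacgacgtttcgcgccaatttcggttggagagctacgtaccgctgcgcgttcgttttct

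Mcm5 held the letters at 2 places, starting 209 and 8 bases before the gene start, while Mcm6 held them once, 139 bases before, and Mcm7 once, 233 bases before. Their levels fell alike, 1.66-fold, 1.81-fold and 1.76-fold below thrombin.

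Genes that build ribosomes had small negative log2 fold changes. Of 55 tested genes of ribosome biogenesis, 5 were lower (9.09%, against 6.31% of all tested genes) and none higher (median -0.36), and 54 of the 55 had a log2 fold change under 0, while thrombin called none (median 0.08). The falls past the threshold were those of Imp3, which takes part in the processing of the small subunit's RNA (log2 -0.73, from 29.4, 31.5 and 27.9 CPM to 17.6, 18.6 and 17.4 CPM), Mrto4, an assembly factor of the large subunit (-0.63), Nhp2, a component of RNA-modifying particles (-0.62), Fbl, the RNA methyltransferase fibrillarin (-0.59), and Lyar (-0.60). Of 80 ribosomal protein genes none was called in either comparison, although 77 had a log2 fold change under 0 with PD03 (median -0.25). Ribosomal protein genes have many near-identical copies in the genome, so reads may have been split between them. With library totals as the scaling 14 genes of ribosome biogenesis were lower.

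Of 13 tested heat shock genes, 2 were lower (15.4%, against 6.31% of all tested genes) and 1 was higher (7.69%, against 9.61%) with PD03. At the adjusted p-value alone 10 were lower and 1 higher. Hsph1, a large heat shock protein of the cytosol, was at 251, 244 and 236 CPM in the control, 294, 299 and 307 CPM in the thrombin and 149.7, 167 and 171 CPM in the PD03 libraries (1.85-fold below thrombin, adjusted p = 3.1e-21). Hspd1, the chaperonin of mitochondria, fell 1.56-fold. Hspb1, a small heat shock protein that binds actin filaments, rose from 75.7, 69.9 and 63.2 CPM to 137, 128 and 132 CPM (log2 0.93, adjusted p = 8.4e-19). Thrombin had moved none of these 3, and the other 10 tested heat shock genes were not called. Of 27 genes of folding in the endoplasmic reticulum 2 were lower (7.41%), Creld2 (log2 -0.67) and Derl3 (-0.88), with a median of -0.002. Derl3 did not meet the naming rule's conditions on level and separate libraries.

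Many contractile genes were higher with PD03. Of 22 tested genes of the contractile apparatus and targets of the serum response factor and YAP, 10 were higher and none lower with PD03 (median 0.46), against 9.61% of all tested genes called higher, and thrombin alone had raised none and lowered 1 (median 0.11). Of these 10, 7 met the definition of not moved by thrombin, and 4 of the 22 had a log2 fold change under 0 with PD03. At the adjusted p-value alone, 11 of the 22 were higher and 5 lower in thrombin against control. The count stayed near this under other scalings (9 with library totals), whereas a fold threshold of 1 left 3.

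Acta2, the smooth muscle actin of myofibroblasts, was at 573, 677 and 631 CPM in the control, 507, 545 and 526 CPM in the thrombin and 1457, 1474 and 1439.8 CPM in the PD03 libraries. Every PD03 library exceeded every library of the other groups by more than a factor of 2, and the rise from thrombin was 2.77-fold (adjusted p = 3.6e-30). Tagln, the actin-binding protein transgelin, was at 744, 817 and 746 CPM with thrombin, overlapping the controls, and at 1353, 1369 and 1316 CPM with PD03 (log2 0.81). Lmod1, which nucleates actin filaments in smooth muscle, rose 7.15-fold from 6.84, 6.69 and 6.12 CPM to 46.9, 47.8 and 45.9 CPM. Actg2, a second smooth muscle actin whose coding sequence is close to that of Acta2, rose 5.14-fold from a low level, and its counts may hold reads of Acta2.

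Further risers were Cnn1, the actin-binding calponin (log2 0.99), Myl9, a myosin regulatory light chain (0.96), Myh11, the smooth muscle myosin heavy chain (0.87), the tropomyosins Tpm1 (0.75) and Tpm2 (0.67), and Ccn2, a secreted target of YAP also known as CTGF (0.79). For Tpm1 and Tagln the 95% intervals of the thrombin against control log2 fold change were -0.07 to 0.08 and -0.08 to 0.07. Of 5 markers of smooth muscle cells and pericytes, summed to 97.4 to 98.7 CPM with thrombin and 106.1 to 110.6 CPM with PD03, only Myh11 was called, none was at 0 in all 6 libraries, and Cspg4 made up most of the sum. The part of such cells in the rise was not tested. The CArG box was in 1 of 15 matched promoter windows of this list, that of Cnn2, which was not called.

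Lysosomal genes had mostly small positive log2 fold changes with PD03. Of 44 tested, 7 were higher (15.9%, against 9.61% of all tested genes) and none lower with PD03, and 40 had a log2 fold change above 0 (median 0.39), while thrombin alone lowered 1 (median -0.14). Gla, the α-galactosidase A, was at 37.1, 39.1 and 38.8 CPM in the control, 31.0, 28.1 and 30.3 CPM in the thrombin and 55.8, 60.9 and 59.0 CPM in the PD03 libraries (log2 0.97, adjusted p = 7.5e-17). Ctsk, the collagen-degrading cathepsin K, rose from 99.03, 93.7 and 91.2 CPM to 167, 159 and 165 CPM, and Ctsh, an aminopeptidase-like cathepsin that thrombin had lowered, rose 1.75-fold. Other risers included the glycosidase genes Idua and Manba and the ceramidase gene Asah1 (log2 0.60, 0.78 and 0.62). At the adjusted p-value alone 35 were higher and 3 lower with PD03, and in thrombin against control 2 were higher and 25 lower. A fold threshold of 1 left none, and library totals left 4. The E-box CACGTG, which lysosomal regulators bind, was in 8 of 33 matched windows (24.2%), against 6.65% of all windows and 9.54% of those of tested genes, and in 1 of the 5 windows of the genes that were higher, that of Idua.

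A few genes that process collagen were higher with PD03. Of 24 tested, 4 were higher (16.7%, against 9.61% of all tested genes) and 1 lower (median 0.37), and each of the 4 had not been moved by thrombin. Serpinh1, the collagen chaperone HSP47, was at 2569, 2595 and 2622 CPM in the control, 2168, 2140.4 and 2145 CPM in the thrombin and 3369.5, 3168 and 3217 CPM in the PD03 libraries (log2 0.60). The procollagen proteinases Bmp1 (0.70), Adamts2 (0.66) and Adamts14 (0.79), which trim the ends of the precursor, rose to a like degree, next to Col1a1 (0.75) and Col1a2 (0.75). P3h2, a prolyl 3-hydroxylase, fell (log2 -2.25), but it did not meet the naming rule's conditions on level and separate libraries. The crosslinking oxidase Lox was not called (-0.08). With library totals the list had 2 higher and 2 lower. Small leucine-rich proteoglycans, which coat collagen fibrils, were higher in 7 of 11 (63.6%, against 9.61% of all tested genes), with a median of 1.08. Thrombin had lowered 5 of the 11 (median -0.49). Among them Ogn (mimecan) rose 3.31-fold, Omd (osteomodulin) 3.95-fold and Aspn (asporin) 2.17-fold.

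**Figure D4:**
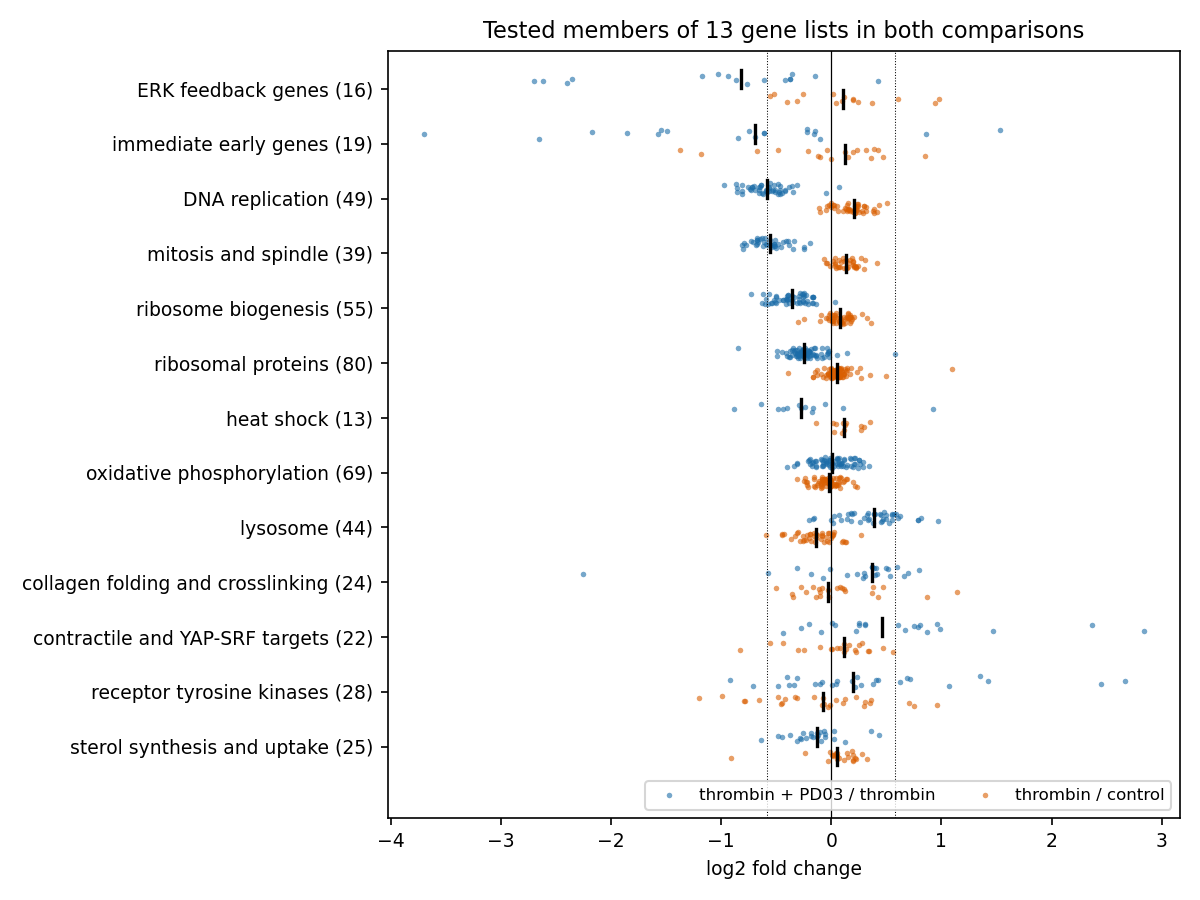
Log2 fold changes of every tested member of 13 gene lists in thrombin with PD03 against thrombin (blue, upper row of each pair) and in thrombin against control (orange, lower row), with the number tested in parentheses, black bars at the medians and dotted lines at 0.58 in either direction. The 2 comparisons share the thrombin libraries. Most replication and mitosis genes lie left of 0 with PD03 and right of 0 with thrombin, most lysosomal genes lie the other way round, and genes of oxidative phosphorylation lie around 0 in both.

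A pair of growth factor genes fell that thrombin had not moved. Hgf, the hepatocyte growth factor that acts through the receptor MET, was at 35.3, 31.1 and 34.4 CPM in the control, 35.9, 33.3 and 30.7 CPM in the thrombin and 8.58, 12.2 and 9.37 CPM in the PD03 libraries, a 3.33-fold fall (adjusted p = 6.0e-19). Control and thrombin libraries interleaved, with a log2 difference of -0.01 (95% interval -0.18 to 0.15), and the PD03 libraries stood apart. Fgf10, a mesenchymal growth factor, behaved likewise, with 61.2, 58.5 and 59.0 CPM, 55.9, 56.3 and 59.0 CPM and 18.7, 17.9 and 19.0 CPM in the 3 groups in the same order (3.08-fold below thrombin, adjusted p = 7.3e-24).

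Receptor tyrosine kinases, which feed signals into the pathway from above, moved in both directions. Of 28 tested, 7 rose (25%, against 9.61% of all tested genes) and 2 fell (7.14%, against 6.31%), with a median of 0.20, and at the adjusted p-value alone 12 were higher and 9 lower. Fgfr3, a receptor for fibroblast growth factors known for restraining bone growth, was at 13.5, 18.9 and 13.8 CPM in the control, 9.99, 8.45 and 8.34 CPM in the thrombin and 47.3, 49.9 and 48.7 CPM in the PD03 libraries (5.45-fold above thrombin, adjusted p = 4.9e-24). The PD03 libraries lay above the controls and the thrombin libraries below them. Ntrk2, the receptor of brain-derived neurotrophic factor, rose 6.33-fold, and Ddr1, a collagen receptor that thrombin had not moved, rose from 56.2, 55.8 and 61.7 CPM to 150.4, 149 and 143 CPM (2.55-fold). Alk (1.07), Kdr (1.42), Mst1r (0.68) and Tek (0.62) rose as log2 fold changes, Kdr and Tek being also endothelial markers. Kdr rests on few counts, with 1.129, 0.7125 and 0.233 CPM with thrombin and 1.535, 2.071 and 2.019 CPM with PD03. Flt4 (-0.92) and Pdgfrb, a receptor for platelet-derived growth factor (-0.71), fell.

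Beyond these lists, the naming rule took the 8 largest rises and falls among genes not moved by thrombin. Rgs4, which shortens signalling by G protein-coupled receptors, was at 2.07, 1.45 and 1.96 CPM in the control, 1.72, 2.52 and 1.57 CPM in the thrombin and 14.3, 17.2 and 17.0 CPM in the PD03 libraries, an 8.25-fold rise (adjusted p = 3.5e-19). Klf2, a zinc finger factor known for its induction in vessels by shear stress, rose 6.69-fold, from 7.67, 6.36 and 6.24 CPM to 48.3, 43.9 and 43.2 CPM. For both, control and thrombin libraries overlapped and the lowest PD03 library lay several-fold above them.

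Hspb7, a small heat shock protein of muscle, was at 24.1, 23.1 and 22.1 CPM with thrombin and 124, 109 and 114 CPM with PD03 (5.01-fold, adjusted p = 2.6e-30). Adgrd1, an adhesion G protein-coupled receptor and the most abundant of the 8 in the PD03 group, rose 3.33-fold, from 86.1, 75.2 and 85.0 CPM to 281, 271 and 267 CPM, with 113, 112 and 107 CPM in the controls. Its thrombin libraries lay below the controls within the limit of the definition (log2 -0.43). Car3, a carbonic anhydrase of muscle and fat (4.77-fold), Scin, the actin-severing scinderin (4.05-fold), Lbh, a transcription cofactor of limb bud and heart (3.38-fold), and Nkd1, an inhibitor of Wnt signalling (3.15-fold), made up the rest.

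On the falling side, Synpo, the actin-associated protein synaptopodin and the most abundant of the 8, was at 188, 195 and 197 CPM in the control, 256, 255 and 269 CPM in the thrombin and 82.7, 88.3 and 84.5 CPM in the PD03 libraries (3.06-fold below thrombin, adjusted p = 1.9e-30). The groups did not overlap, and thrombin was the highest. Akr1b10, an aldo-keto reductase, had the same order and fell 2.96-fold, and its counts may hold reads of close relatives of the family. Megf10, an engulfment receptor (3.92-fold), Galnt14, an enzyme that starts O-linked sugar chains (3.58-fold), and Syt17, a synaptotagmin (3.04-fold), fell next to Etv4, Hgf and Fgf10. Against control the log2 fold changes of these 16 ran from -2.57 for Etv4 to 3.13 for Rgs4. This follows from how they were selected and is not a separate result.

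**Figure D5:**
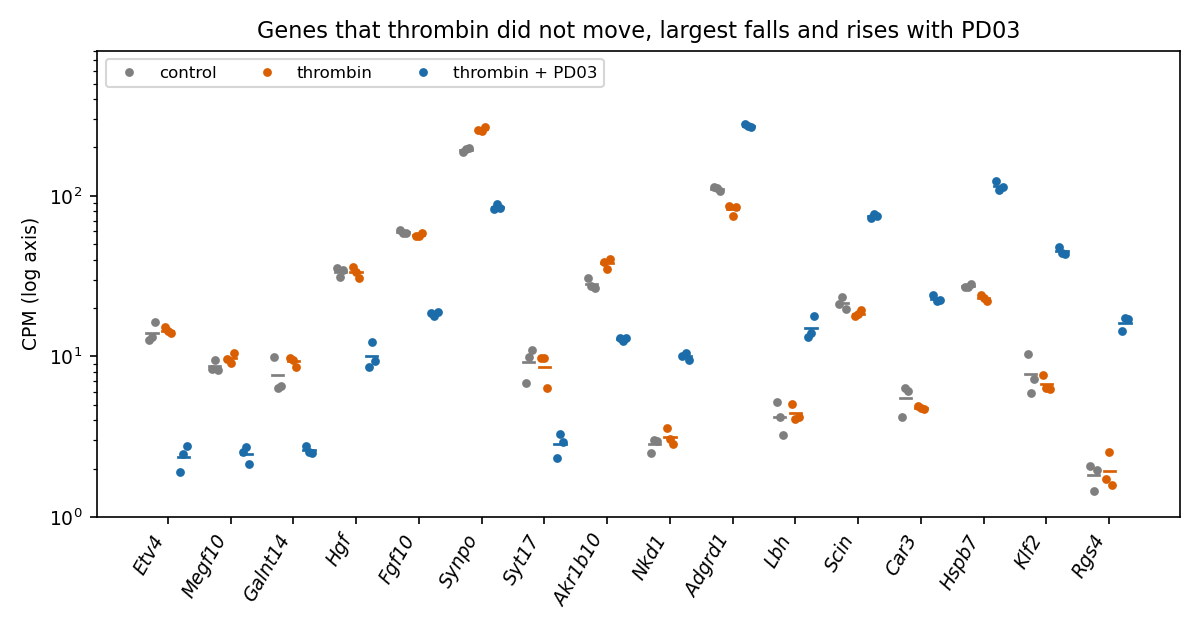
CPM on a log axis of the 8 largest falls (left) and 8 largest rises (right) with PD03 among genes that thrombin did not move, in each library of the control (grey), thrombin (orange) and thrombin with PD03 (blue) groups, with bars at the group means. Control and thrombin libraries overlap or stand apart within the limit of the definition, as for Synpo, Akr1b10 and Adgrd1. The PD03 libraries of every gene lie outside both, which follows in part from the selection.

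Metabolic lists moved little as wholes. None of 69 tested genes of oxidative phosphorylation was called in either comparison, and their log2 fold changes with PD03 lay between -0.40 and 0.34. Of 25 genes of sterol synthesis and uptake only Mvd, mevalonate diphosphate decarboxylase, was called (log2 -0.64), while Hmgcs1, a synthase early in the route (-0.17), and the regulator Srebf2 (-0.13) were not. The letters TCACNCCAC of the sterol element were in none of 17 matched windows of that list (1.13% of all, 1.14% of those of tested genes).

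Genes of fatty acid synthesis were higher in 3 of 15 (20%, against 9.61% of all tested genes) and lower in none. Their median was -0.17, so count and median differ in sign. Gpam, which starts the assembly of glycerolipids, rose from 62.8, 54.5 and 60.4 CPM to 116, 121 and 123.3 CPM (2.03-fold, adjusted p = 4.6e-20). Acss2, which makes acetyl-CoA from acetate, rose 1.62-fold. Acacb, the acetyl-CoA carboxylase of the mitochondrial surface, had a log2 fold change of 0.85. It did not meet the naming rule's conditions on level and separate libraries. Fasn, the fatty acid synthase, was not called (-0.26).

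Amino acid genes and targets of the stress factor ATF4 were lower in 6 of 34 (17.6%, against 6.31% of all tested genes). They were higher in 1 (2.94%, against 9.61%), with a median of -0.18, whereas thrombin had raised 5 and lowered 1. Psat1, of serine synthesis, was at 77.9, 81.8 and 82.2 CPM in the control, 94.3, 102 and 109 CPM in the thrombin and 56.4, 57.3 and 58.9 CPM in the PD03 libraries, and Shmt2, the mitochondrial serine hydroxymethyltransferase, fell beside it (log2 -0.82 and -0.76). The transporters Slc1a5 (-0.80) and Slc7a1 (-0.63), the transsulfuration enzyme Cth (-0.76) and Ddit4, an inhibitor of mTORC1 (-1.12), fell, and Vldlr, a lipoprotein receptor, rose (1.39). Atf4 itself and Asns, asparagine synthetase, were not called (-0.04 and -0.39). The ATF4 letters TGATGCAA were in 6 of 30 matched windows of this list (20%), against 0.743% of all and 0.575% of those of tested genes. They were in none of the 5 windows of its lower genes or the 1 of its higher genes.

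Of 27 genes of glycolysis and the hypoxia response, 3 were higher (11.1%, against 9.61% of all tested genes) and 4 lower (14.8%, against 6.31%). Car9, the carbonic anhydrase of hypoxic cells, rose from 7.73, 7.46 and 8.34 CPM to 19.2, 18.5 and 17.3 CPM (2.34-fold, adjusted p = 1.8e-12), Pfkfb3, which makes the activator of phosphofructokinase, rose 1.75-fold, and the peptide hormone gene Adm had a log2 fold change of 0.77. Hk2, hexokinase 2, which thrombin had raised, fell from 47.2, 51.4 and 49.8 CPM to 25.8, 27.6 and 32.1 CPM, close to the controls (32.5, 31.8 and 33.7 CPM), and Eno1 (-0.71), Pfkp (-0.59) and Egln3 (-0.67) fell as log2 fold changes.

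Skeletal genes did not share a direction. Of 20 tested genes of osteoblast differentiation, 8 were higher (40%, against 9.61% of all tested genes) and 4 lower (20%, against 6.31%) (median 0.22). Runx2 was at 41.0, 45.5 and 41.9 CPM in the control, 53.8, 49.7 and 49.8 CPM in the thrombin and 29.1, 33.0 and 34.3 CPM in the PD03 libraries, a 1.59-fold fall from thrombin (adjusted p = 2.5e-11), and thrombin had not moved it. Sp7 (osterix), the factor next in line, was at 6.07, 5.43 and 7.11 CPM with thrombin and 5.99, 4.08 and 4.77 CPM with PD03 and was not called (log2 -0.31). Alpl, the alkaline phosphatase of mineralizing cells, rose from 0.357, 0.329 and 0.350 CPM to 2.54, 2.98 and 3.80 CPM, values that rest on few counts. Tnfrsf11b, the osteoclast-restraining decoy receptor osteoprotegerin, rose 2.97-fold after a fall with thrombin, and the phosphate-handling gene Enpp1 (-1.29) and the homeobox gene Msx2 (-0.92) fell, along with Spp1 (-1.80). Smpd3 (4.24), Pth1r, the parathyroid hormone receptor (0.77), and Sparc (0.69) rose. Smpd3 had the largest rise of the list but did not meet the naming rule's conditions on level and separate libraries.

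Tendon and cartilage genes were higher in 9 of 20 (45%, against 9.61% of all tested genes) and lower in 1 (5%, against 6.31%). Their median was 0.43. In PD03 against control 13 were higher (65%, against 4.9%) and 1 lower (5%, against 4.07%). Tnmd, the tendon protein tenomodulin, was at 47.0, 46.9 and 44.6 CPM in the control, 23.0, 27.9 and 23.7 CPM in the thrombin and 177, 178 and 174 CPM in the PD03 libraries (7.08-fold above thrombin, adjusted p = 2.8e-34), with 3 separate groups. Comp, an oligomeric matrix protein, rose 4.47-fold, while Scx, the tendon factor scleraxis, fell (log2 -0.73), and Sox9, the master factor of cartilage that thrombin had raised, was not called (0.18). Adipocyte genes were higher in 4 of 15 (26.7%, against 9.61% of all tested genes) and lower in 1 (6.67%, against 6.31%). Lpl, lipoprotein lipase, and Klf15 rose (0.67 and 1.07) after falls with thrombin, and Cebpb stood at the threshold (-0.58). Pparg was also called higher, but it was under 2 CPM throughout, so that its ratio rests on few counts. The summed level of 6 adipocyte markers was at most 1.285 CPM in these 6 libraries.

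Wnt antagonists, receptors and targets were higher in 16 of 30 (53.3%, against 9.61% of all tested genes) and lower in 1 (3.33%, against 6.31%). Their median was 0.65, and thrombin had raised 2 (6.67%, against 2.62%) and lowered 9 (30%, against 5.44%). Nkd2, an inhibitor related to Nkd1, was at 14.8, 14.1 and 14.0 CPM with thrombin and 49.7, 48.2 and 53.9 CPM with PD03 (3.53-fold), and the agonist gene Rspo2 rose 3.30-fold. Notch genes were lower in 4 of 13 (30.8%, against 6.31% of all tested genes) and higher in 1 (7.69%, against 9.61%). Hes1, the direct target of the pathway, fell from 20.0, 22.0 and 21.1 CPM to 7.47, 9.65 and 11.2 CPM and Notch2 fell 1.68-fold, while the ligand gene Jag1 rose 3.10-fold from a level that thrombin had lowered. Genes of the insulin-like growth factor axis were higher in 10 of 17 (58.8%) and lower in 1 (5.88%), with a median of 0.77. Thrombin had lowered 8 (47.1%) and raised none. In it Igf2 was at 289, 283 and 288 CPM, 97.5, 90.0 and 88.4 CPM and 303, 272 and 286 CPM in the control, thrombin and PD03 libraries, so that PD03 and control libraries overlapped, and the binding protein genes Igfbp5 and Igfbp2 rose 6.19-fold and 5.53-fold.

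All groups were kept in dexamethasone, a glucocorticoid. Of 15 genes that glucocorticoids induce, 5 were lower (33.3%, against 6.31% of all tested genes) and 2 higher (13.3%, against 9.61%) with PD03. Thrombin had lowered 5 (33.3%, against 5.44%). Sgk1, a kinase of salt transport, was at 175, 185 and 179 CPM in the control, 196, 209 and 213 CPM in the thrombin and 68.1, 86.1 and 74.5 CPM in the PD03 libraries (2.71-fold below thrombin, adjusted p = 2.9e-25), and it had not been moved by thrombin. Errfi1, an inhibitor of the EGF receptor that ERK also induces, fell 3.28-fold. The metallothionein gene Mt2A fell from 167, 183 and 188 CPM in the controls to 42.2, 46.5 and 45.6 CPM with thrombin and to 16.2, 13.9 and 11.6 CPM with PD03, a step down in both comparisons. Fkbp5 (-0.72) fell, but Tsc22d3 (1.11) and Zbtb16 (1.72), which the glucocorticoid receptor also induces, rose. Zbtb16 did not meet the naming rule's conditions on level and separate libraries.

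Complement genes were higher in 9 of 17 (52.9%, against 9.61% of all tested genes) and lower in 1 (5.88%, against 6.31%). Their median was 0.75, after thrombin had lowered 8 (47.1%, against 5.44%). The component gene C4a rose 3.32-fold, Cfb, of the alternative pathway, 2.198-fold, and Cd59, which blocks the membrane attack complex, 2.68-fold. C4a and its neighbour C4b are nearly identical, so their counts cannot be kept apart with certainty. Interferon response genes were higher in 7 of 29 (24.1%) and lower in 1 (3.45%), with a median of 0.16. Under thrombin 12 were lower (41.4%) and none higher. Ifit2 was at 15.7, 18.5 and 18.8 CPM with thrombin and 24.2, 28.8 and 31.1 CPM with PD03, under every control library (34.7, 31.9 and 31.6 CPM), and Irf7 and Xaf1 rose 1.75-fold and 1.73-fold from levels under 5 CPM.

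Among axon guidance genes, 14 of 53 were higher (26.4%, against 9.61% of all tested genes) and 7 lower (13.2%, against 6.31%). Of 14 neurotrophic factors and receptors, 5 were higher (35.7%) and 4 lower (28.6%). Sema3d, a secreted semaphorin, was at 133, 136 and 129.9 CPM in the control, 40.7, 41.4 and 40.5 CPM in the thrombin and 186, 192 and 201 CPM in the PD03 libraries (4.71-fold above thrombin). Plxnc1 rose 4.95-fold and the ephrin receptor gene Epha1 fell 4.84-fold. The heparin-binding factor Ptn rose 3.26-fold and Gfra2, a co-receptor for factors of the GDNF family, 3.96-fold. On the other side, the lowest log2 fold change of the neurotrophic list was -1.44. In the remaining lists, 2 of 22 antioxidant genes were higher and 2 lower (9.09% each, against 9.61% and 6.31% of all tested genes). Hmox1, heme oxygenase, was higher (log2 0.66) along with Ephx1 (0.62), and Akr1b10 was lower (-1.56). Of 14 genes of retinoic acid handling 4 were higher (28.6%) and 3 lower (21.4%), with Rbp4 at 1.14 and Crabp1 at -0.97. Of 17 clock genes 2 were lower (11.8%), Bhlhe40 (-1.14) and Nr1d1 (-0.60), and none of 10 Hox genes was called.

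Transporters and channels were taken by symbol. Of 221 solute carriers 36 were higher (16.3%, against 9.61% of all tested genes) and 17 lower (7.69%, against 6.31%). Of 73 ion channel genes 16 were higher (21.9%) and 8 lower (11%). Slc47a1, an exporter of organic cations, fell 8.46-fold to 1.17, 1.23 and 1.71 CPM after a rise with thrombin, Slc16a14 fell 4.97-fold, and Slc10a6, a carrier of sulfated steroids, rose 2.89-fold. The potassium channel gene Kcnd3 was at 18.6, 14.5 and 18.4 CPM in the control, 5.77, 6.20 and 5.71 CPM in the thrombin and 35.4, 35.9 and 41.0 CPM in the PD03 libraries (6.34-fold above thrombin). Kcnk6, a background potassium channel that thrombin had not moved, rose 2.28-fold, and its relative Kcnk4 fell 2.83-fold.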

How the data were processed

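Messenger RNA of 9 libraries (3 each in the control, thrombin and PD03 groups, as the sample titles give them) was sequenced by the authors. According to the paper the reads were trimmed with fastp, aligned with HISAT2 to Rnor_6.0 and counted with featureCounts, whereas the submitters' processing notes name HISAT2, HTSeq 0.13.5 and mRatBN7.2. Neither strandedness nor annotation release is given in the sources used here, so genes that overlap on opposite strands cannot be told apart. The authors deposited 1 table with the raw read count and an FPKM value per gene and library, by Ensembl identifier with symbols and no coordinates. The FPKM values served only as an alternative. Of 19085 genes, 2048 had no symbol and 79 symbols stood on more than 1 gene, of which the one with the most counts was used.

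From the deposited counts, genes were kept by filterByExpr (minimum count 10, 13256 genes), scaled by TMM and fitted over all 9 libraries with the quasi-likelihood test of edgeR 4.0.16 (R 4.3.3, limma 3.58.1, DESeq2 1.42.0). Adjustment of p-values followed Benjamini and Hochberg and covered all tested genes. Within groups, pairs of libraries differed beyond counting noise (chi-square over degrees of freedom 1.82 to 4.03), and the biological coefficient of variation was 4.28%. The procedure was tested on simulated data. The study used DESeq2, which is an alternative here, besides other scalings, filters, tests, fold thresholds, definitions of genes not moved by thrombin, the replicate block and the omission of each library in turn. The scaling without Col1a1 and the CArG box were added after seeing the data. Promoter windows came from RefSeq (GRCr8), matched by symbol.

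The members and the 39 gene lists were chosen with earlier results of these data known, so lists are described by counts and medians and not tested. Genes are named by a rule: all feedback genes of ERK, up to 3 called genes of each other list and 8 per direction over all genes and over genes not moved by thrombin, ranked by size of change, given a mean of 5 CPM or more in the higher of both groups and separate PD03 and thrombin libraries, and a set of known regulators. Every other gene named was chosen after its values were seen. Python 3.11.15 with matplotlib 3.10.9 drew the figures. Protein and staining experiments were not analysed here, and some genes of the lists are not reported here.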

Additional observations from a re-analysis of the deposited data

How the results depend on the processing

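Against 1274 higher and 836 lower calls, and 333 higher and 389 lower among the 9474 genes with a small thrombin effect, the settings that set a different threshold changed the counts by construction. With no fold threshold there were 3358 higher and 3250 lower (2204 and 2647 among the latter genes), with a log2 change above 1 there were 626 and 309 (57 and 42), and with glmTreat, which tests against the fold threshold itself, there were 671 and 380 (162 and 127). A mean count of at least 50, which tests fewer genes, gave 873 and 642. Thrombin intervals within 0.3 left 5639 genes with 99 higher and 110 lower calls, and a thrombin adjusted p not under 0.05 with a change under 0.2 left 7433 genes with 203 and 199. The balance depended on the kind of scaling. DESeq2-type size factors gave 1261 higher and 862 lower (59.4% of the calls higher), and upper quartile scaling gave 1310 and 805 (61.9%). DESeq2, which the study used, gave 1195 and 829 (59%), and limma voom gave 1283 and 841 (60.4%). Library totals alone gave 1022 and 1176 (209 and 639), with 46.5% of the calls higher against 60.4% in the main run. The FPKM values gave 537 and 717 with 1 added (227 and 482, 42.8% higher), and 983 and 1140 with 0.1 added (219 and 622, 46.3% higher). Library totals without Col1a1, a setting chosen after seeing the data, gave 1100 and 1020 (247 and 539, 51.9% higher). Other causes of these differences were not tested.

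Leaving out 1 library at a time gave 1218 to 1300 higher and 822 to 890 lower calls, and 300 to 347 higher and 361 to 429 lower among the genes with a small thrombin effect. It took 12 named genes under the fold threshold of 0.58, none of them with a change of sign. Without Thrombin replicate 1 these were Spry4 (log2 -0.44), Rps6ka3 (0.54), Cebpb (-0.57), Ifit2 (0.57) and Nr1d1 (-0.57). Without Thrombin replicate 2 they were Rb1 (0.58), Cebpb (-0.57) and Ephx1 (0.50), and without Thrombin replicate 3 Gab1 (0.57) and Nhp2 (-0.57). Without PD03 replicate 1 they were Bmf (0.51) and Mrto4 (-0.58), without PD03 replicate 2 Cebpb (-0.57), and without PD03 replicate 3 Mvd (-0.58), Cebpb (-0.54), Ifit2 (0.57) and Nr1d1 (-0.47). Library totals took 9 named genes under it, Gab1 (0.55), Rps6ka3 (0.51), Rb1 (0.56), Bmf (0.54), Adamts2 (0.56), Lpl (0.57), Ifit2 (0.56), Hmox1 (0.56) and Ephx1 (0.52), and library totals without Col1a1 took Rps6ka3 (0.55), Bmf (0.58) and Ephx1 (0.56). Of 157 named genes, 93 stayed on the same side of the threshold in every alternative run and 0 were reversed. The median of the adipocyte genes turned to -0.06 with the mean count of at least 50, and that of the neurotrophic factors and receptors to -0.02 without PD03 replicate 3.

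The replicate numbers showed no sign of pairing, although 3 libraries per group are too few to settle it. Deviations of same-numbered PD03 and thrombin libraries correlated at -0.016 to 0.0523, and 2 of 6 libraries correlated best with their own number. A fit with the replicate block called 1264 higher and 839 lower, with 334 and 394 among the genes with a small thrombin effect, and changed no call of a named gene. With 15447832 to 19841468 counts in a library, changes of genes near the count minimum were the least precise.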
